A study of Mus musculus with 6 samples.

Results

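Mitochondrial ribosomal protein genes were examined in primary hepatocytes from mice with induced miR-143 and from control mice. The genes were all those whose symbol in the array's annotation was Mrpl or Mrps followed by a number, and their values were the mean log2 intensity of the probe sets that name that gene alone. By this rule 74 genes were found among 20416 genes with probe sets of their own, and Mrps6 had none, since its probe set also names Slc5a3. The 74 genes had 435 probe sets, from 1 to 15 per gene with a median of 5. All 74 passed the filter that left out the 25% of genes with the lowest mean levels, and 15312 genes were tested in all.

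The miR-143DOX group held hepatocytes of 3 adult mice of the C57BL/6 strain with an miR-143 allele that doxycycline switches on. The control group held hepatocytes of 3 wildtype littermates. Mice of both groups drank water with 4 mg/ml doxycycline and 10% sucrose for 8 days, so the drug was common to both groups. Doxycycline is an antibiotic that acts on bacterial ribosomes and can also slow protein synthesis in mitochondria. A comparison of the groups therefore shows nothing of the drug's own effect on these genes. The labels name neither the promoter that drives the allele nor the sex of the mice, and miR-143 was not itself analysed here. Cells were obtained by collagenase perfusion of the liver, and RNA of each mouse was read on 1 Affymetrix array. Across the 6 arrays the medians of the deposited log2 values ran from 6.63 to 6.70, and between any pair of them the correlation across probe sets (Pearson) was 0.936 to 0.954. The hepatocyte label was checked against 12 markers such as Alb, Ttr and Cps1. The mean log2 level of the 12 was 12.34 to 12.47 in miR-143DOX and 12.33 to 12.54 in control arrays. Of these Ass1 was low, at 5.85 to 7.19 in miR-143DOX and 5.83 to 6.84 in control arrays. Sinusoidal endothelium markers averaged 7.39 to 7.91 in miR-143DOX and 7.73 to 7.83 in control arrays. Kupffer cell markers averaged 7.03 to 7.40 and 7.15 to 7.21, and the share of other cells was not tested.

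Mitochondria keep a small genome whose few protein-coding genes all specify subunits of the respiratory chain and ATP synthase. These are translated inside the organelle by the mitochondrial ribosome, whose large and small subunits are built from RNAs of the mitochondrial genome and from proteins encoded in the nucleus, named Mrpl and Mrps. Many of the proteins descend from those of bacterial ribosomes, and others have no bacterial counterpart. The liver is rich in mitochondria, and in humans inherited defects of several of these genes cause failure of oxidative phosphorylation.

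No gene of the family differed between miR-143DOX and control hepatocytes past the test over all genes, and the family's median lay near 0. The median difference over the 74 genes was 0.0055 on the log2 scale (miR-143DOX minus control), beside 0.0083 over all 15312 genes tested, and 39 of 74 lay above 0 (52.7%, against 52.4% of all genes). In limma's moderated test 0 of 74 passed 5% false discovery rate over all genes (0% of all genes passed), and the smallest adjusted p of a member was 0.9997. At an unadjusted p under 0.05 there were 0 members higher in miR-143DOX (1.38% of all genes) and 1 lower (1.68% of all genes), which was Mrps17, so that 1.35% of members and 3.06% of all genes were past it in either direction. The groups did not overlap for 0 members with miR-143DOX higher (3.4% of all genes) and for 5 members with miR-143DOX lower (3.73% of all genes). In RNA of whole cell preparations fewer cells of a type and less RNA per cell cannot be told apart.

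The intervals show how large a difference the 6 arrays leave room for. For 64 of 74 members the whole 95% interval of the difference lay within 1.5-fold either way (85.3% of all genes), and no member's fitted difference went past 1.5-fold (0.607% of all genes). The absolute difference was under 0.1 for 43 members (58.1%, against 50.4% of all genes) and had a median of 0.078, beside 0.099 over all genes. The spread within a group was larger than this, with a median SD of 0.14 in miR-143DOX and 0.21 in control (n = 3 each). Standard errors and 95% intervals given for single genes are those of the limma fit, not adjusted for the number of genes.

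**Figure D1:**
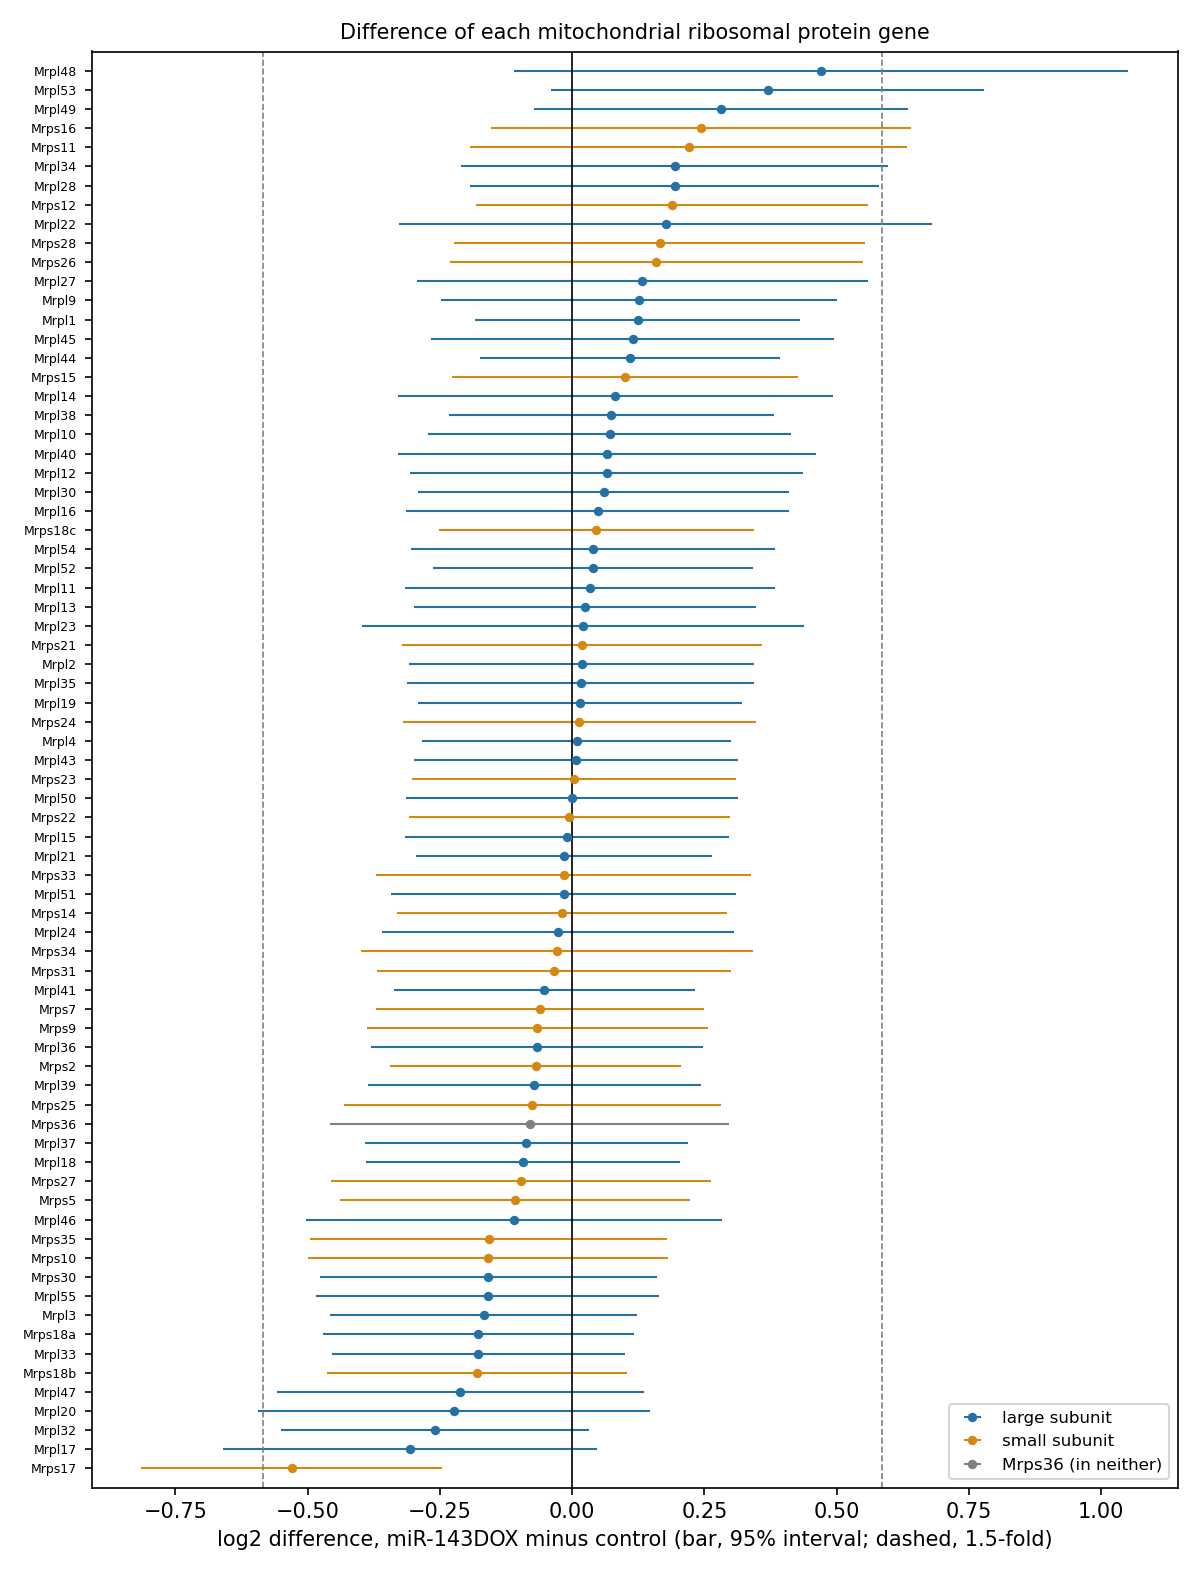
Fitted log2 difference, miR-143DOX minus control, of each of the 74 mitochondrial ribosomal protein genes (points) with its 95% interval (bars), coloured by ribosomal subunit. The dashed lines mark 1.5-fold, and the interval of Mrps17 alone excludes 0.

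Genes of both subunits lay on either side of 0. Of 48 genes for proteins of the large subunit 29 lay above 0, with a median difference of 0.017 and a range of -0.31 to 0.47. Of 25 genes for proteins of the small subunit 10 lay above 0, with a median of -0.020 and a range of -0.53 to 0.24. Here Mrps30 and Mrps18a were counted with the large subunit, where their proteins sit despite their names, and Mrps36, whose product belongs to the 2-oxoglutarate dehydrogenase complex, was counted with neither. Genes whose product takes the place of a bacterial ribosomal protein had a median of 0.017 (44 genes) and those whose product has no counterpart at its place, Mrps18a and Mrps18b included, a median of -0.016 (29 genes). The difference between these classes was not tested.

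Mrps17, which encodes the homologue of bacterial protein S17 in the small subunit, was the 1 member past an unadjusted p of 0.05. It measured 7.51, 7.68 and 7.47 in miR-143DOX hepatocytes, against 8.12, 8.02 and 8.10 in control hepatocytes (log2). Every miR-143DOX array lay below every control array. The difference was -0.53 (standard error 0.13, interval -0.82 to -0.25), a fold of 0.692, and in limma the adjusted p over all genes was 0.9997.

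That difference came mainly from 1 of the gene's 5 probe sets. This probe set measured 3.91, 4.42 and 3.75 in miR-143DOX arrays, against 5.81, 6.28 and 6.13 in control arrays, a difference of -2.05 or 4.14-fold lower. The other 4 probe sets differed by -0.27, -0.024, -0.19 and -0.12. All 5 lay below 0, but the remaining 4 together averaged 8.43 ± 0.05 in miR-143DOX and 8.58 ± 0.13 in control (SD, n = 3 each), a difference of -0.15 (limma adjusted p = 0.9997, a step chosen after the values were seen). With the median over probe sets Mrps17 stood at -0.23 and with its brightest probe set at -0.024, neither past an unadjusted p of 0.05. Absolute differences over 2 were found for 1 of 435 member probe sets (0.23%) and for 335 of 212097 probe sets over all genes (0.158%). The levels of this probe set in miR-143DOX arrays lie under 5.06, the level of the filter on dim genes, and no detection call was used.

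**Figure D2:**
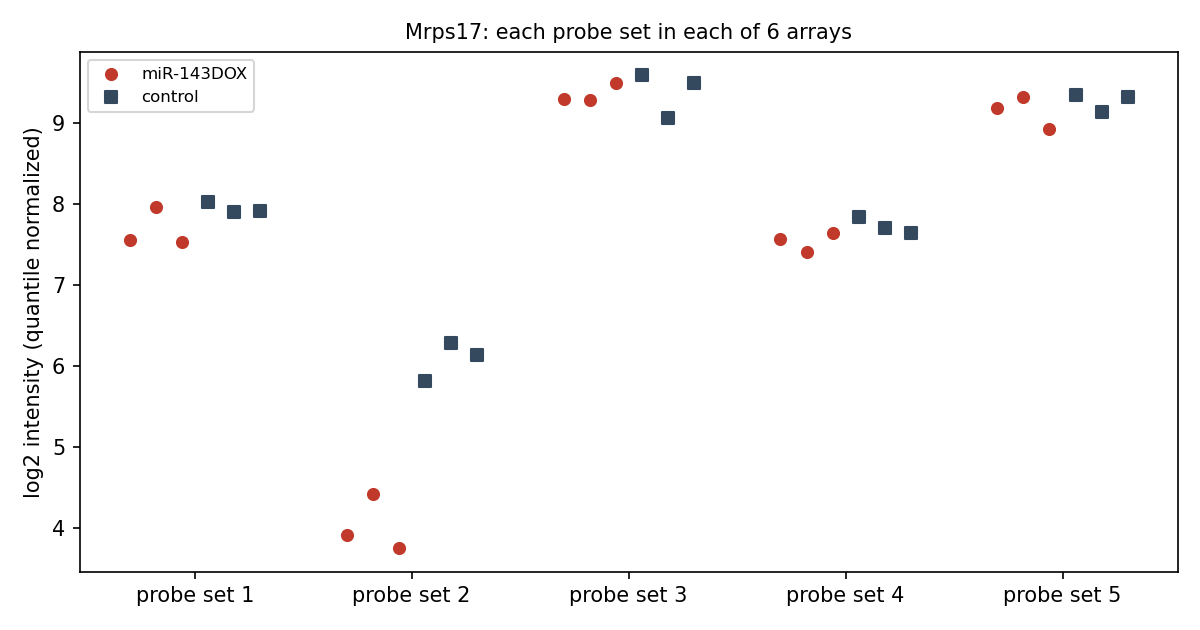
Log2 intensity (vertical axis) of each of the 5 probe sets of Mrps17 in the 3 miR-143DOX arrays (circles) and the 3 control arrays (squares). The second probe set is at 3.75 to 4.42 in miR-143DOX and 5.81 to 6.28 in control, while in the other 4 the groups lie closer together.

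The other 4 members whose groups did not overlap were lower in miR-143DOX by smaller amounts, and none of them passed an unadjusted p of 0.05. Mrpl32, the homologue of bacterial L32 whose maturation by the m-AAA protease is needed for ribosome assembly in yeast and mouse, measured 7.32, 7.04 and 7.19 in miR-143DOX hepatocytes, against 7.46, 7.49 and 7.38 in control hepatocytes. The difference was -0.26 (standard error 0.13, interval -0.55 to 0.033). All control arrays lay above the highest miR-143DOX array. Mrpl33, the homologue of bacterial L33, measured 5.52, 5.42 and 5.55 in miR-143DOX hepatocytes, against 5.68, 5.61 and 5.72 in control hepatocytes. The difference of -0.18 (standard error 0.13, interval -0.45 to 0.10) was negative in 5 of its 8 probe sets and positive in 3. For both of these genes the brightest probe set gave the opposite sign, at 0.11 for Mrpl32 and 0.20 for Mrpl33.

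Mrps18a, Mrps18b and Mrps18c are paralogues that all descend from bacterial S18. The product of Mrps18c takes the place of S18 in the small subunit, that of Mrps18b sits elsewhere in the small subunit and that of Mrps18a in the large one. Mrps18a measured 7.44, 7.32 and 7.48 in miR-143DOX hepatocytes, against 7.75, 7.49 and 7.53 in control hepatocytes, a difference of -0.18 (standard error 0.13, interval -0.47 to 0.12). Mrps18b measured 9.09, 8.998 and 9.19 in miR-143DOX hepatocytes, against 9.36, 9.22 and 9.24 in control hepatocytes, a difference of -0.18 (standard error 0.13, interval -0.46 to 0.10). Both were a little lower in each miR-143DOX array than in any control array, for Mrps18a by as little as 7.48 against 7.49. Mrps18c measured 8.52, 8.42 and 8.23 in miR-143DOX hepatocytes, against 8.35, 8.43 and 8.26 in control hepatocytes, and its groups overlapped at a difference of 0.045 (standard error 0.14, interval -0.25 to 0.34). The probe sets of Mrps18b all lay below 0 (5 of 5), while 6 of 7 did for Mrps18a and 1 of 5 for Mrps18c. The brightest probe set of Mrps18b stood at -0.0077. For Mrps18a the lone probe set above 0, at 0.38, had every miR-143DOX array above every control array (4.52% of all probe sets did).

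The promoters of the 5 members whose groups did not overlap are shown because any shared letters in them can be compared directly. Sequences are from RefSeq on GRCm38.p6 and run 5′ to 3′ along each gene from 250 bases before to 50 bases after its start. Capitals mark matches on either strand to the ETS motif CCGGAAG, the NRF1 core GCATGCG, the YY1 motif GATGGCG, the E-box CACGTG and the CCAAT box. The NRF1 core overlaps its own reverse complement, so 1 stretch can count on both strands, and no other pair of these motifs overlapped in the windows shown. The windows are chr5:129715247-129715546 on the plus strand for Mrps17, chr13:14612988-14613287 on the minus strand for Mrpl32, chr5:31613701-31614000 on the plus strand for Mrpl33, chr17:46110754-46111053 on the plus strand for Mrps18a and chr17:35916391-35916690 on the minus strand for Mrps18b.
Mrps17: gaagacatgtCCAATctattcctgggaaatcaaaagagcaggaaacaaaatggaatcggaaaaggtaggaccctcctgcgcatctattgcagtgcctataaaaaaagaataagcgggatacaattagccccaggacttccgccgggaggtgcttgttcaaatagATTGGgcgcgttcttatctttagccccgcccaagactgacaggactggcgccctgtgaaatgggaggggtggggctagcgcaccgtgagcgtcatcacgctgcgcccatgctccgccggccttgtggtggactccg
Mrpl32: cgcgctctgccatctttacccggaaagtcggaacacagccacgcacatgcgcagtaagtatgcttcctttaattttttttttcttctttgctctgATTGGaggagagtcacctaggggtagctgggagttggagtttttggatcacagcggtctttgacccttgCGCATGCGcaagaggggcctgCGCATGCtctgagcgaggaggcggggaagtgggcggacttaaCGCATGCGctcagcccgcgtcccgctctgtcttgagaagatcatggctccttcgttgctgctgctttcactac
Mrpl33: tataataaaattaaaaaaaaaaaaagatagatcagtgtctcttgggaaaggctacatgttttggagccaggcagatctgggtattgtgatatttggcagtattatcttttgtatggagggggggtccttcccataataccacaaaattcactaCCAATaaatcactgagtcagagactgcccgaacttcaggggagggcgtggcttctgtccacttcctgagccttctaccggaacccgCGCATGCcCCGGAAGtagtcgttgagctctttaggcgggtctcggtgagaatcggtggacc
Mrps18a: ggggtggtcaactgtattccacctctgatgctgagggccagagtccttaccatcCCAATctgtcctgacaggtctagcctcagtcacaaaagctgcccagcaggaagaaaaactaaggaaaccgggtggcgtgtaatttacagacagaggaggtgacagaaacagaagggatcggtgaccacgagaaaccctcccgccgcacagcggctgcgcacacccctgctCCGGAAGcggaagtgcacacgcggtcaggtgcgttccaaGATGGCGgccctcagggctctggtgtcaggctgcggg
Mrps18b: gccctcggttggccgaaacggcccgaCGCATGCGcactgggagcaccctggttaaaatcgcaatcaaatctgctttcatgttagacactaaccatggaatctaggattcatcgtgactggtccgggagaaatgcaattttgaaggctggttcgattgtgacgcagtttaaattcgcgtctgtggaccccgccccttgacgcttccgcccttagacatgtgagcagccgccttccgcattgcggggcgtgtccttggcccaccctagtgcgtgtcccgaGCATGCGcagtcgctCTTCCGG
No motif of the 5 was common to these promoters. The CCAAT box was found in the windows of Mrps17, Mrpl32, Mrpl33 and Mrps18a, and that of Mrps17 held no other motif of the 5. The windows of Mrpl33, Mrps18a and Mrps18b held the ETS motif, those of Mrpl32, Mrpl33 and Mrps18b the NRF1 core, and that of Mrps18a the YY1 motif.

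Over the family, 65 of 74 genes had a promoter window, and the first window listed for each gene was used. ETS factors such as GABPA, and NRF1, are regulators of nuclear genes for mitochondrial proteins. The ETS motif was present in 23 of 65 member promoters (35.4%), against 11.9% of 17492 promoters of protein-coding genes of the same length. The NRF1 core was present in 8 (12.3%, against 4.49%) and the YY1 motif in 7 (10.8%, against 4.46%). Shares of the E-box (7.69%, against 7.9%) and of the CCAAT box (40%, against 39%) were close to those of all promoters. A match is a description of the letters and not evidence of binding.

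Many of the genes lie head to head with a neighbour. For 23 of 65 members (35.4%) the start of another protein-coding gene on the opposite strand lay within 1000 bases upstream, against 8.04% of all 17492 genes. Mrps12 faced Sars2, the mitochondrial seryl-tRNA synthetase gene, Mrpl43 faced Twnk, the helicase of mitochondrial DNA, and Mrpl47 faced the respiratory complex I gene Ndufb5. Mrpl32 faced the proteasome gene Psma2 and Mrps18b faced Ppp1r10. Mrps11 and Mrpl46 faced each other, a gene of the small and a gene of the large subunit on either side of 1 region. Mrps11 measured 6.39, 6.26 and 6.40 in miR-143DOX hepatocytes, against 6.47, 6.26 and 5.66 in control hepatocytes, and Mrpl46 measured 7.34, 6.92 and 6.78 in miR-143DOX hepatocytes, against 7.34, 6.84 and 7.19 in control hepatocytes. The difference was 0.22 (standard error 0.19, interval -0.19 to 0.63) for Mrps11 and -0.11 (standard error 0.18, interval -0.50 to 0.28) for Mrpl46, and the groups overlapped for both. Without control replicate 3, which was low for Mrps11 but not for Mrpl46, the difference of Mrps11 was -0.014.

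**Figure D3:**
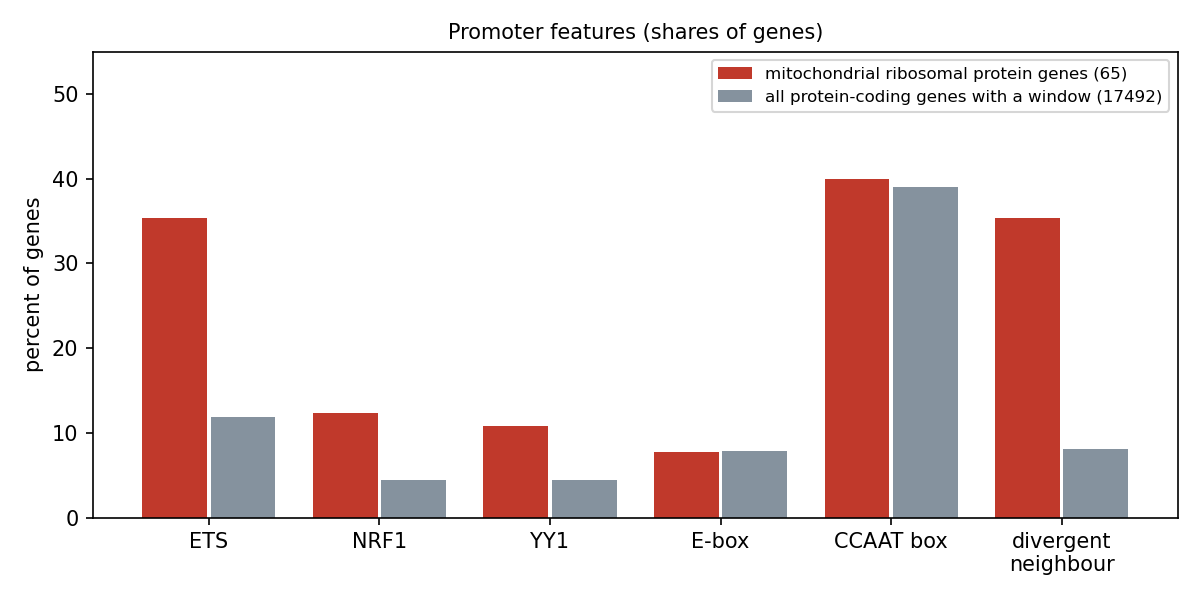
Percent of genes (vertical axis) whose 300-base promoter window holds each motif, or whose start has a divergent neighbour within 1000 bases, for 65 mitochondrial ribosomal protein genes and all 17492 protein-coding genes with a window. ETS stands at 35.4% against 11.9% and the divergent neighbour at 35.4% against 8.04%.

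Among large subunit genes, those above 0 with the smallest p were Mrpl53, Mrpl48 and Mrpl49, whose products have no bacterial counterpart. Mrpl53 measured 5.96, 5.28 and 5.55 in miR-143DOX hepatocytes, against 5.07, 5.51 and 5.11 in control hepatocytes, a difference of 0.37 (standard error 0.19, interval -0.039 to 0.78) from a lone probe set, since its others also name Ccdc142. Mrpl48, a protein of the central protuberance, measured 7.32, 6.63 and 7.17 in miR-143DOX hepatocytes, against 6.79, 7.03 and 5.90 in control hepatocytes, a difference of 0.47 (standard error 0.27, interval -0.11 to 1.05). The low value of control replicate 3 stands out for Mrpl48, and without that array its difference was 0.13. Mrpl49 measured 8.15, 7.72 and 7.98 in miR-143DOX hepatocytes, against 7.83, 7.77 and 7.42 in control hepatocytes, a difference of 0.28 (standard error 0.16, interval -0.072 to 0.63). For all of these genes control replicate 2 lay above miR-143DOX replicate 2, so the groups overlapped.

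For Mrpl48 and Mrpl49 the largest difference was in the probe set with the lowest level. Of the 3 probe sets of Mrpl48 the differences were 1.08, 0.33 and -0.00021, and in the probe set at 1.08 control replicate 3 read 2.60. Without dim probe sets, a setting chosen after the values were seen, the difference of Mrpl48 was 0.17. Of the 5 of Mrpl49 the largest was 0.94 and the others lay between -0.0031 and 0.36. Its lowest probe set averaged 5.27, which is not among the dim ones, so its difference stayed at 0.28 in that setting.

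The next large subunit genes above 0 by p were Mrpl28 and Mrpl34, the homologues of bacterial L28 and L34. Mrpl28 measured 7.503, 7.44 and 7.17 in miR-143DOX hepatocytes, against 7.52, 7.16 and 6.86 in control hepatocytes, a difference of 0.19 (standard error 0.18, interval -0.19 to 0.58). Mrpl34 measured 7.84, 7.72 and 7.57 in miR-143DOX hepatocytes, against 7.94, 7.42 and 7.19 in control hepatocytes, a difference of 0.19 (standard error 0.18, interval -0.21 to 0.60). In both genes control replicate 3 was lowest and control replicate 1 highest of all 6 arrays.

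Below 0 among large subunit genes stood Mrpl17, Mrpl47 and Mrpl20, homologues of bacterial L17, L29 and L20. Mrpl17 measured 6.85, 6.80 and 6.999 in miR-143DOX hepatocytes, against 7.51, 6.94 and 7.11 in control hepatocytes, a difference of -0.31 (standard error 0.16, interval -0.66 to 0.047), of which 1 of 6 probe sets gave -1.05. Mrpl47 measured 5.16, 5.48 and 5.69 in miR-143DOX hepatocytes, against 5.69, 5.52 and 5.77 in control hepatocytes, a difference of -0.21 (standard error 0.16, interval -0.56 to 0.14). Mrpl20 measured 6.78, 6.68 and 6.62 in miR-143DOX hepatocytes, against 7.31, 6.72 and 6.73 in control hepatocytes, a difference of -0.22 (standard error 0.17, interval -0.59 to 0.15). Control replicate 1 alone was high for Mrpl17 and Mrpl20, while for Mrpl47 miR-143DOX replicate 1 was low. The sign of Mrpl47 turned with its brightest probe set, at 0.30, and all 5 probe sets of Mrpl20 lay below 0.

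Apart from Mrps18a, given above, the large subunit members picked by role rather than by value showed overlapping groups. Mrpl3 and Mrpl44 are genes in which human mutations cause combined oxidative phosphorylation deficiency. Mrpl3 measured 7.54, 7.42 and 7.67 in miR-143DOX hepatocytes, against 7.80, 7.70 and 7.63 in control hepatocytes, a difference of -0.17 (standard error 0.13, interval -0.46 to 0.12). Of its 15 probe sets 13 lay below 0 and 1 stood at 1.17. Mrpl44 measured 7.74, 7.67 and 7.64 in miR-143DOX hepatocytes, against 7.69, 7.56 and 7.47 in control hepatocytes, a difference of 0.11 (standard error 0.13, interval -0.17 to 0.39). Mrpl12, the stalk protein that in human cells also binds the mitochondrial RNA polymerase, measured 8.84, 8.59 and 8.42 in miR-143DOX hepatocytes, against 8.86, 8.46 and 8.33 in control hepatocytes, a difference of 0.065 (standard error 0.17, interval -0.31 to 0.44). Its values in replicate 1 of both groups were nearly equal and the highest. Mrps30 measured 6.995, 6.88 and 7.17 in miR-143DOX hepatocytes, against 7.38, 7.09 and 7.05 in control hepatocytes, a difference of -0.16 (standard error 0.15, interval -0.48 to 0.16). Mrpl42 was not analysed here.

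In the small subunit, Mrps16 and Mrps22 are also genes of human mitochondrial disease, and Mrps12 encodes the homologue of S12, a protein of the decoding site. Mrps16 measured 8.87, 8.65 and 8.50 in miR-143DOX hepatocytes, against 8.83, 8.26 and 8.20 in control hepatocytes, a difference of 0.24 (standard error 0.18, interval -0.15 to 0.64), which turned to -0.063 with the median over its 4 probe sets. Mrps12 measured 7.68, 7.46 and 7.10 in miR-143DOX hepatocytes, against 7.44, 7.13 and 7.10 in control hepatocytes, a difference of 0.19 (standard error 0.17, interval -0.18 to 0.56). Mrps22 measured 7.57, 7.45 and 7.66 in miR-143DOX hepatocytes, against 7.69, 7.61 and 7.39 in control hepatocytes, a difference of -0.0056 (standard error 0.14, interval -0.31 to 0.30). Mrps16 and Mrps12 were highest in miR-143DOX replicate 1, and the groups overlapped for each of these genes. Mrps11, described above with its neighbour Mrpl46, also belongs to the small subunit. Mrps36, counted with neither subunit, measured 6.55, 5.99 and 6.24 in miR-143DOX hepatocytes, against 6.59, 6.19 and 6.24 in control hepatocytes, a difference of -0.081 (standard error 0.17, interval -0.46 to 0.30).

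Probe sets of a gene often disagreed in sign. Of the 73 members with at least 2 probe sets, 6 had all of them above 0, 4 had all below 0 and 63 had some on each side. Over the 435 probe sets 218 lay above 0 (50.1%, against 50.7% of all probe sets that name 1 gene). The groups did not overlap for 16 probe sets with miR-143DOX higher (3.68%, against 4.52% of all) and 20 with miR-143DOX lower (4.6%, against 4.57%). Mrpl13, homologue of bacterial L13, is an example chosen after its values were seen. Its 7 probe sets ranged from -0.56 to 0.49, of which 3 had every miR-143DOX array above every control array, and its mean differed by 0.025 (standard error 0.15, interval -0.30 to 0.35). Its brightest probe set lay at -0.56, and where each gene was read from its brightest probe set Mrpl13, lower in miR-143DOX, took the place of Mrps17 as the 1 member past an unadjusted p of 0.05. Another of its probe sets was almost equally bright and stood at 0.29, so that call rests on a near tie.

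The members varied together from array to array within each group. With 1 array per mouse, the mouse, its cell preparation and the array cannot be told apart. Taking each gene's deviation from its own mean over the 6 arrays, the 74 genes averaged 0.12, -0.06 and -0.06 in miR-143DOX replicates 1, 2 and 3, and 0.19, -0.02 and -0.17 in control replicates 1, 2 and 3 (log2). The group means of these deviations were 0.00036 ± 0.10 in miR-143DOX and -0.00036 ± 0.18 in control (SD, n = 3 each). The distance between the highest and lowest array was 0.36, beside 0.052 for the same measure over all genes tested. Quantile normalization keeps the mean over all genes nearly level between arrays, so 0.052 is small by construction. The same distance was 0.39 for cytosolic ribosomal and 0.43 for respiratory chain genes. It was 0.20 for hepatocyte, 0.37 for Kupffer cell and 0.52 for sinusoidal endothelium markers. These values describe the arrays, and no test was made of them.

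**Figure D4:**
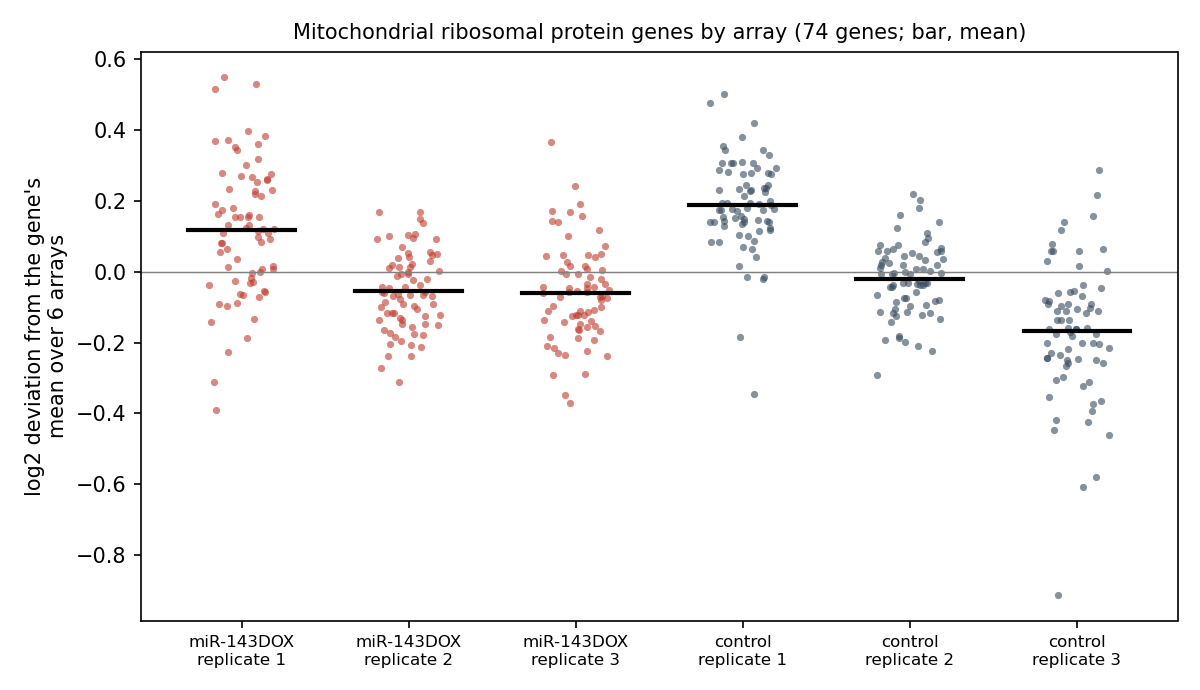
Log2 deviation of each of the 74 genes (points) from its own mean over the 6 arrays, by array, with the mean over genes as a bar. Control replicate 1 (0.19) and miR-143DOX replicate 1 (0.12) are highest and control replicate 3 (-0.17) is lowest, so the control arrays lie on both sides of all miR-143DOX arrays.

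Nearly every member took part in the distance between control arrays. Control replicate 1 stood above control replicate 3 in 69 of 74 members (93.2%, against 59.7% of all genes), including 25 of 25 small subunit and 43 of 48 large subunit genes, with a median distance of 0.35. Among the other arrays, miR-143DOX replicate 1 stood above replicate 2 in 63 of 74 members (85.1%, against 51% of all genes) and above replicate 3 in 58 (78.4%, against 57.7%). Control replicate 1 was the highest of the 6 arrays for 45 members (60.8%, against 23.1% of all genes), and control replicate 3 the lowest for 39 (52.7%, against 23.6%). Without quantile normalization 67 of 74 members still had control replicate 1 above control replicate 3, and with each gene's brightest probe set 64 did.

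The sign of the small median difference turned with the control array left out. Without control replicate 1 the median over the members was 0.078, and without control replicate 3 it was -0.083. Over all genes the medians were 0.026 and -0.012 in these settings.

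Other genes of protein synthesis and respiration had deviations of the same order in the same arrays. Cytosolic ribosomal protein genes (63 tested) averaged 0.09, 0.02 and -0.08 in miR-143DOX arrays and 0.18, 0.0038 and -0.21 in control arrays. Genes of respiratory chain and ATP synthase subunits (87 tested) averaged 0.19, 0.03 and -0.14 in miR-143DOX arrays and 0.19, -0.02 and -0.24 in control arrays. Hepatocyte markers (12) stood at -0.06, -0.08 and 0.04 in miR-143DOX and -0.09, 0.09 and 0.11 in control. Serpina1a moved some of these values, and without it, as chosen after seeing them, the other 11 markers stood at 0.05, -0.06 and 0.04 in miR-143DOX and -0.10, 0.08 and -0.0043 in control. Ass1 moved them too. Without both, also chosen after seeing the values, the remaining 10 stood at -0.018, -0.0035 and 0.03 in miR-143DOX and -0.13, 0.06 and 0.064 in control. Sinusoidal endothelium markers (9) stood at 0.21, -0.31 and -0.11 in miR-143DOX and 0.03, 0.05 and 0.13 in control, with 0 of 9 genes above 0 in their group difference (52.4% of all genes were). Stellate cell and fibroblast markers (9) stood at 0.19, -0.02 and -0.08 in miR-143DOX and 0.03, 0.02 and -0.13 in control. Kupffer cell markers (10) stood at 0.20, -0.16 and 0.03 in miR-143DOX and -0.05, -0.04 and 0.02 in control. The part of these in the members' values was not tested. The median differences between the groups were 0.046 for cytosolic ribosomal and 0.045 for respiratory chain genes, beside 0.0055 for the mitochondrial ribosomal genes. At an unadjusted p under 0.05, 1 cytosolic ribosomal gene was higher (1.38% of all genes) and 1 lower (1.68% of all genes). Of the respiratory chain genes 0 were either (3.06% of all genes). The difference between the lists was not tested.

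**Figure D5:**
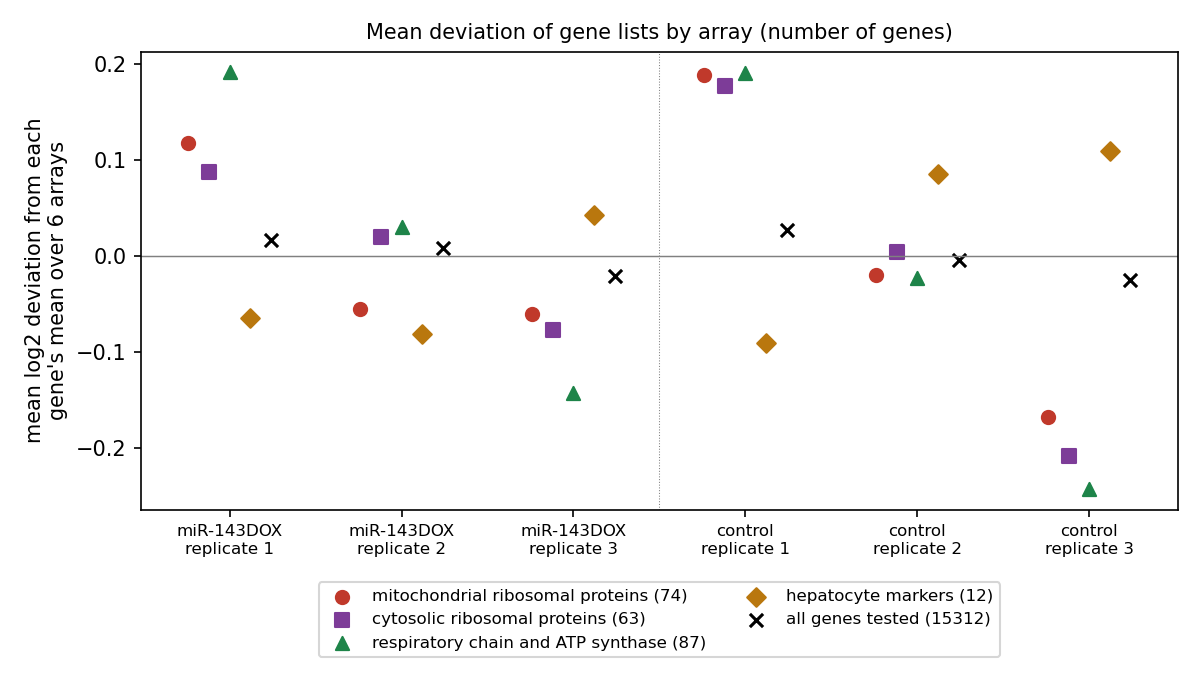
Mean log2 deviation (vertical axis) from each gene's own mean over the 6 arrays, by array, for mitochondrial ribosomal protein genes, cytosolic ribosomal protein genes, respiratory chain genes, hepatocyte markers and all genes tested. The first 3 lists are low in control replicate 3 (-0.17, -0.21 and -0.24). There the 12 hepatocyte markers stand at 0.11, or at -0.0043 without Serpina1a and at 0.064 without Serpina1a and Ass1.

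Lists of other genes for mitochondrial translation, transcription and biogenesis had medians of -0.059 to 0.0058, beside 0.0083 over all genes. Of 61 genes on 5 lists of such genes, 53 were tested, and 21 of these lay above 0 (52.4% of all genes did). That lean was not tested. In limma 0 passed 5% false discovery rate, and at an unadjusted p under 0.05 there were 0 higher (1.38% of all genes) and 2 lower (1.68% of all genes). Proteins of the mitochondrial ribosome named outside the Mrpl and Mrps scheme had a median of -0.042 and a range of -0.19 to 0.0058 (6 tested). Dap3, Chchd1 and Ict1 lay nearest 0, and Gadd45gip1 stood at -0.13 and Mrp63 at -0.07. Ptcd3 was lowest at -0.19, with every miR-143DOX array below every control array (3.73% of all genes), but not past an unadjusted p of 0.05. Translation factors had a median of -0.022 (13 tested), ribosome assembly and RNA modification factors -0.047 (19 tested), mitochondrial transcription factors -0.059 (5 tested) and regulators of mitochondrial biogenesis 0.0058 (10 tested).

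The pair of genes past that p was Mtif3 and Ppargc1a. Mtif3, the mitochondrial initiation factor 3, measured 6.71, 7.07 and 6.98 in miR-143DOX hepatocytes, against 7.80, 7.14 and 7.10 in control hepatocytes. Its difference was -0.43 (standard error 0.19), negative in 5 of 5 probe sets at -1.49 to -0.053, and without control replicate 1 it was -0.20, no longer past an unadjusted p of 0.05. Every miR-143DOX array lay below every control array for Mtif3. Ppargc1a, the coactivator PGC-1alpha that drives mitochondrial biogenesis, measured 6.89, 6.45 and 6.41 in miR-143DOX hepatocytes, against 7.64, 6.95 and 6.78 in control hepatocytes. Its difference was -0.54 (standard error 0.22), negative in 14 of 16 probe sets at -1.96 to 0.11, and without control replicate 1 it was -0.28, also not past it. The groups overlapped for Ppargc1a, with control replicate 1 the highest array. Neither passed over all genes in limma (adjusted p = 0.9997 each).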

How the data were processed

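Per the labels' protocols, RNA came from snap-frozen hepatocytes by Trizol extraction and was hybridised to Affymetrix arrays as biotinylated cDNA. The deposited table holds 234873 probe sets on 6 arrays as log2 values, a scale read from their span (1.60 to 15.2). Partek is named, per the submitters' processing notes, and the step by which the authors normalized the log2 values is not stated in the labels. The values were quantile normalized. Probe sets with 1 gene symbol in the platform annotation (212097) were averaged per gene, and genes under log2 5.06 were left out, 5104 in all. A linear model with group as its sole term was fitted by lmFit and eBayes of limma 3.58.1 (R 4.3.3), two-sided, with Benjamini-Hochberg adjustment over 15312 genes. Steps were tested on 5 simulated data sets of 15312 genes, 200 of them changed. There 98.6% of 2-fold changes were recovered, 7.32% of calls were false and 95.1% of intervals held the true difference. The labels call the samples biological replicates, and 3 arrays per group limit the precision. The members, the lists and the tests were chosen with earlier results of these data known. Named members were the 8 with the smallest p in each direction and a fixed set by role. Promoters were searched with Python 3.11.15. The planned comparison of protein sequences was not run, and protein sequences were not used here. Alternatives were other normalizations, filters, summaries of probe sets, priors, weights per array, a block for the replicate number and leaving out single arrays.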

Additional observations from a re-analysis of the deposited data

How the results depend on the processing

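Under 15 planned settings and with dim probe sets left out (a setting chosen after seeing the data), 0 members passed 5% false discovery rate in limma. Members at an unadjusted p under 0.05 numbered 1 higher and 2 lower with array weights (6.67% of all genes in either direction, against 3.06% as reported), 0 lower with the median over probe sets (3.66%) and 0 lower with dim probe sets left out (2.68%). With the brightest probe set 1 was lower, Mrpl13 in place of Mrps17 (2.97%). With each array left out, 0 to 3 were higher and 1 to 2 lower, with 3 higher without miR-143DOX replicate 2 (1.96% of all genes in either direction) or control replicate 1 (4.33%), and 2 higher and 2 lower without control replicate 2 (3.36%). Over the 6 such settings the share of all genes ran from 1.96% to 7.37%. The median difference ran from -0.083 to 0.078 over the members, -0.077 to 0.10 over the large and -0.093 to 0.046 over the small subunit. With the brightest probe set the difference turned to 0.11 for Mrpl32, 0.20 for Mrpl33, 0.30 for Mrpl47, 0.22 for Mrps36 and 0.15 for Mrps22, with array weights to 0.0016 for Mrps36, and with the median over probe sets to -0.063 for Mrps16. With arrays left out it turned for Mrps11 (-0.014 to 0.39), Mrps18c (-0.020 to 0.13), Mrps36 (-0.23 to 0.056), Mrps22 (-0.093 to 0.057) and Mrpl12 (-0.050 to 0.22). The causes were not tested. Same-numbered arrays correlated at 0.107, 0.0468 and 0.296 in their deviations from the group means over all genes. The miR-143DOX replicates 2 and 3 correlated best with the control of their own number and replicate 1 with control replicate 2. With 1 of the correlations under 0.1 the numbers were not taken as a pairing, though all lay above 0. The mean deviation of the members was highest in replicate 1 of each group, at 0.117 in miR-143DOX and 0.188 in control. An effect shared by arrays of the same number was not tested. With the replicate block 0 members were higher and 1 lower (Mrps17) at an unadjusted p under 0.05 (4.79% of all genes in either direction). In that setting 0 passed 5% false discovery rate. Signal near background limits the dimmest members, Mrpl53, Mrpl47 and Mrpl33.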

Other observations

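A further 13 probe sets name a mitochondrial ribosomal protein gene together with another gene and entered no gene value. For 0 of the 13 were the groups apart, where over all genes 4.52% of probe sets were higher and 4.57% lower. The differences of the 13 ran from -0.32 to 0.13. The probe set shared by Mrps6 and Slc5a3 measured 6.99, 6.61 and 6.69 in miR-143DOX hepatocytes, against 6.53, 6.58 and 6.79 in control hepatocytes (log2). Of the 6 that name Mrpl53 and Ccdc142, 5 lay below 0, while the probe set of Mrpl53 alone stood at 0.37. Those that name Mrps36 and Sgk3 all lay below 0, at -0.22 to -0.12.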
